A study of Mus musculus
Rattus norvegicus and Rattus norvegicus and Mus musculus with 18 samples.

Results

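The 5 mouse genes Rcan2, Nrcam, Thsd4, Camk1d and Phex were described in 4T1 tumor cells that grew in rats, across lung, tumor core and tumor rim. They were chosen by their level in the lung: among 1134 mouse genes called higher in lung than in rim and averaging at least 2 on the log2 CPM scale over the lung and rim libraries (CPM, mouse read counts scaled to the size of their library), they had the largest differences, and they are 5 of 17672 mouse genes measured. 4T1 is a metastatic mammary carcinoma line of the mouse. Its cells were placed in the mammary fat pad of SRG rats, hosts that lack mature T, B and NK cells through loss of Rag2 and Il2rg, so mouse RNA is that of the tumor cells and rat RNA that of the host. Animals were untreated, and the tissues were collected at day 27. PolyA RNA was sequenced from 5 lungs, 5 tumor cores (the necrotic region) and 5 tumor rims (the region without necrosis). Cores and rims came from the same 5 rats. Lungs came from 4 of these rats and from Rat3789, which gave no core or rim used here. A pellet of cultured 4T1 cells (1 library) and normal rat mammary gland without a transplant (2 libraries) were the controls of a single species. The labels give the genotype as wildtype and name neither age nor sex for the rats.

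The 5 proteins belong to different systems. Rcan2 is a regulator of calcineurin, the calcium-dependent phosphatase that lets NFAT transcription factors enter the nucleus. Camk1d is a calcium/calmodulin-dependent protein kinase of the CaMKI family, switched on by calmodulin and by the upstream kinases Camkk1 and Camkk2. Nrcam is a cell adhesion molecule of the L1 family, best known from neurons, where its cytoplasmic tail binds ankyrins. Thsd4, also called Adamtsl6, is a secreted relative of the Adamts proteases that lacks a protease domain and binds fibrillin microfibrils. Phex is a membrane-bound zinc metallopeptidase of the M13 family, best known from bone, where its loss causes phosphate wasting.

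Phex, Nrcam and Rcan2 carry a short coding motif by which the family is recognised, and these stretches are printed to show which molecule was counted. They come from the GENCODE M21 transcripts for GRCm38, 5′ to 3′ on the coding strand, and the capitals mark the codons of the motif.
Phex, zinc-binding motif, chrX:157183925-157186263 on the minus strand, across an exon junction: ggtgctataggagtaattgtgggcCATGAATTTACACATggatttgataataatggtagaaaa
Nrcam, ankyrin-binding motif, chr12:44598462-44598524 on the plus strand: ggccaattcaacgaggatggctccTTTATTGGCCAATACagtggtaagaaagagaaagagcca
Rcan2, calcineurin regulator signature, chr17:44020998-44021069 on the plus strand: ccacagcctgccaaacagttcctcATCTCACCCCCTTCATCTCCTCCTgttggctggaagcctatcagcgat
The Phex motif was found in the 1 complete coding transcript of the gene, the Nrcam motif in 2 of 3 and the Rcan2 signature in 5 of 6. The deposited values are per gene, so they do not tell which transcript was read.

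The genes lie on 5 different chromosomes: Rcan2 at chr17:43801351-44039516 on the plus strand, Nrcam at chr12:44328885-44601964 on the plus strand, Thsd4 at chr9:59966931-60522046 on the minus strand, Camk1d at chr2:5293457-5714515 on the minus strand and Phex at chrX:157162075-157415312 on the minus strand (GRCm38). All 5 are long. Their spans of 238 to 555 kb stand at the 97.4th to 99.6th percentile of tested genes with an annotated span. Of 329 genes spanning at least 238 kb, 10.03% were called higher and 12.5% lower in lung than in rim, against 9.86% and 10.1% of 12621 shorter genes. Each member overlaps between 1 and 4 other annotated genes, and no exons overlap.

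The libraries held 15346400 to 26669410 mouse reads and 3146720 to 10015352 rat reads. The library labelled as the lung of Rat3789 stood apart in its rat reads, and its rat markers do not bear out that label. Its 7 rat alveolar type 2 markers summed to 142 CPM, against 8665 to 15117 CPM in the other lungs and 85.9 to 140 CPM in the rims. Its rat type 1 markers summed to 260 CPM, against 1966 to 3586 CPM in the other lungs and 253 to 357 CPM in the rims. The 3 rat airway markers measured, 2 of them at 0 reads, summed to 1.65 CPM, against 753 to 3183 CPM in the other lungs and 0.705 to 20.3 CPM in the rims. Its 6 rat fibroblast markers summed to 25942 CPM, against 2181 to 6315 CPM in the other lungs. That was below every rim (31721 to 58322 CPM) and above every core (3285 to 11145 CPM). The lung of Rat3789 below means the library labelled so. Mean lung levels of the 5 mouse genes, and their differences of lung from rim and core, are also given without it. Other values include it unless stated. In the mouse reads, all 7 epithelial markers of 4T1 cells were called lower in lung than in rim (median log2 difference -3.11). Their summed level was 1893 to 2828 CPM in lung, 2479 to 3938 CPM in core and 4106 to 5451 CPM in rim, with no marker at 0. The part of this shift in the values of the 5 genes was not tested. In such tissue libraries, more RNA of a gene per cell and more cells that express it cannot be told apart.

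Rcan2 had the largest difference between lung and rim of the 5 genes. Rcan2 stood at 36.9, 16.6, 20.2, 15.5 and 36.2 CPM in the lungs of Rat3789, Rat3869, Rat3875, Rat3876 and Rat3877. In the cores of Rat3867, Rat3869, Rat3875, Rat3876 and Rat3877 it stood at 7.50, 6.29, 8.27, 4.93 and 10.3 CPM, and in their rims at 0.175, 1.27, 1.88, 0.651 and 2.07 CPM. The lungs, cores and rims formed 3 bands that did not overlap, with the lungs of Rat3789 and Rat3877 highest and the rim of Rat3867, with 3 reads, lowest. The means were 25.1 ± 10.6 CPM in lung, 7.45 ± 2.03 CPM in core and 1.21 ± 0.803 CPM in rim (SD, n = 5 each). Without the lung of Rat3789 the lungs averaged 22.1 ± 9.62 CPM (SD, n = 4). The log2 difference of lung from rim was 4.71 (SE 0.59), and without the lung of Rat3789 it was 4.55.

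Camk1d, the kinase, was the member read most deeply. Its level was 83.8, 47.1, 78.0, 79.8 and 74.3 CPM in the lungs, in the same order of rats. The cores held 29.9, 23.4, 34.0, 29.4 and 40.3 CPM and the rims 3.12, 4.73, 8.26, 5.81 and 9.65 CPM. Again the 3 tissues did not overlap, and the lowest lung, that of Rat3869, lay 1.17-fold above the highest core. The means were 72.6 ± 14.7 CPM in lung, 31.4 ± 6.24 CPM in core and 6.32 ± 2.64 CPM in rim (SD, n = 5 each). The lungs without Rat3789 averaged 69.8 ± 15.3 CPM (SD, n = 4). The log2 difference of lung from rim was 3.61 (SE 0.28), the smallest error among the members, and it was 3.55 without the lung of Rat3789.

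Nrcam, the adhesion molecule, had another profile. It stood at 7.04, 24.5, 27.1, 20.4 and 24.9 CPM in the lungs, at 0.748, 1.68, 1.41, 1.02 and 2.06 CPM in the cores, and at 0.723, 1.04, 2.17, 0.312 and 0.873 CPM in the rims. The lung of Rat3789 held the least Nrcam of the 5 lungs, still above every core and rim, while cores and rims lay within each other's range. The means were 20.8 ± 8.06 CPM in lung, 1.38 ± 0.520 CPM in core and 1.02 ± 0.694 CPM in rim (SD, n = 5 each). Leaving out the lung of Rat3789, the lungs averaged 24.2 ± 2.82 CPM (SD, n = 4). The log2 difference of lung from rim was 4.47 (SE 0.49), and 4.82 without the lung of Rat3789. Nrcam lay just inside the level used to choose the genes, at a mean log2 CPM of 2.0001 over the lung and rim libraries.

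Thsd4, the microfibril-binding protein, stood at 68.4, 25.0, 29.8, 33.9 and 38.6 CPM in the lungs. It stood at 21.0, 10.9, 13.4, 18.4 and 33.4 CPM in the cores and at 2.52, 0.854, 5.69, 2.63 and 3.12 CPM in the rims. The lung of Rat3789 was highest, and the core of Rat3877 reached into the range of the lungs, so lung and core overlapped while both lay above all rims. Thsd4 averaged 39.1 ± 17.1 CPM in lung, 19.4 ± 8.79 CPM in core and 2.96 ± 1.75 CPM in rim (SD, n = 5 each). Without that of Rat3789 the lungs averaged 31.8 ± 5.78 CPM (SD, n = 4). Its log2 difference of lung from rim was 3.87 (SE 0.42), and 3.64 without the lung of Rat3789.

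Phex, the metallopeptidase, was measured at 58.4, 73.8, 45.1, 20.6 and 67.7 CPM in the lungs, at 29.3, 30.2, 33.3, 19.7 and 23.6 CPM in the cores and at 3.07, 1.27, 15.5, 3.65 and 7.26 CPM in the rims. The lung of Rat3876 fell within the range of the cores, and the rim of Rat3875 was the highest rim. Phex averaged 53.1 ± 21.1 CPM in lung, 27.2 ± 5.45 CPM in core and 6.14 ± 5.64 CPM in rim (SD, n = 5 each). The lungs other than that of Rat3789 averaged 51.8 ± 24.1 CPM (SD, n = 4). Its log2 difference of lung from rim was 3.47 (SE 0.57), and 3.41 without the lung of Rat3789.

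**Figure D1:**
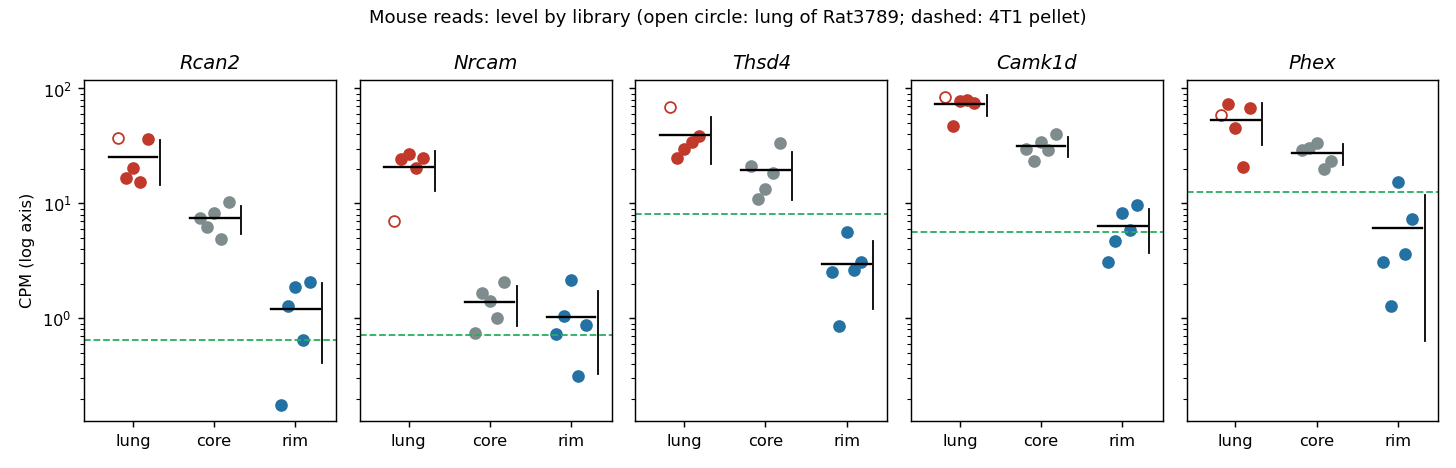
Level of each gene in mouse reads by tissue, in CPM on a log axis, with 1 point per library (5 lungs, 5 cores, 5 rims), a bar at the mean, a vertical line of 1 SD either side and a dashed line at the single 4T1 pellet. The SD line is cut short at its lower end for Phex in rim. The lungs lie above all rims for each gene, and the cores lie between for Rcan2 and Camk1d, while the cores of Nrcam lie among its rims.

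Because these 5 genes were chosen on lung against rim, the differences above are descriptions and carry no test. The share of all mouse genes whose tissues do not overlap was not counted. For the background, limma with Benjamini-Hochberg adjustment called 9.91% of 12970 mouse genes higher and 10.2% lower in lung than in rim. That is 1285 genes higher and 1318 lower, or 1719 and 1109 when libraries were scaled to total reads. Without the lung of Rat3877 the calls in both directions numbered 1589, and without that of Rat3789 they numbered 2897, in place of 2603. The first gene outside the 5 was Aqp1, a water channel, at 3.26 against 3.47 for Phex. Another 10 called genes with larger differences than Phex had a lower mean level and were not taken. Per kb of annotated exon, the mean level in lung was highest for Camk1d at 9.78 CPM, followed by Phex at 8.44, Rcan2 at 5.74, Thsd4 at 2.80 and Nrcam at 1.56 CPM. Camk1d and Phex overlapped in this order, at 6.34 to 11.3 and 3.28 to 11.7 CPM per kb over the lungs.

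Within the 4 rats that gave both tissues, each gene was higher in lung than in rim in 4 of 4 rats. The genes were chosen on this contrast, and the share of all mouse genes that do so was not counted. The log2 differences within a rat were 3.42 to 4.57 for Rcan2, 3.65 to 6.03 for Nrcam, 2.39 to 4.87 for Thsd4, 2.94 to 3.78 for Camk1d and 1.55 to 5.86 for Phex. Rat3875 had the smallest difference in Rcan2, Nrcam, Thsd4 and Phex. Its rim held the most Nrcam, Thsd4 and Phex of the 5 rims. Phex thus varied most between rats, with a 58.1-fold difference in Rat3869 and a 2.92-fold difference in Rat3875. Camk1d varied least, at 7.70-fold to 13.7-fold.

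Lung and core were compared as a description too, since the lung libraries chose the genes. The log2 difference of lung from core was 3.86 (SE 0.37) for Nrcam and 1.69 (SE 0.27) for Rcan2. It was 1.20 (SE 0.17) for Camk1d, 1.03 (SE 0.30) for Thsd4 and 0.86 (SE 0.29) for Phex. Without the lung of Rat3789 these values were 4.21 for Nrcam, 1.53 for Rcan2, 1.14 for Camk1d, 0.81 for Thsd4 and 0.80 for Phex. Within a rat, the smallest differences of lung from core were 0.06 for Phex in Rat3876 and 0.21 for Thsd4 in Rat3877. For Nrcam they were 3.59 to 4.33 over the 4 rats.

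The comparison of core with rim asks whether the 5 genes also differ inside the primary tumor. The core did not serve the choice of the genes, but the same rims did, and the genes were selected partly for being low there. The differences of core from rim are therefore a description with no test too, and the comparisons of lung and of core share these rims. With the rat as a block, limma called 10.1% of 13070 mouse genes higher and 9.63% lower in core than in rim. Without Rat3875 or Rat3867 the calls over all genes numbered 1260 or 1360, in place of 2585.

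Camk1d stood higher in core by 2.40 on the log2 scale (SE 0.19), and the 5 rats ranged from 2.04 to 3.26. The difference was 2.84 (SE 0.32) for Thsd4, 3.02 (SE 0.46) for Rcan2 and 2.61 (SE 0.43) for Phex. Each of these 4 genes was higher in core in 5 of 5 rats, and all cores lay above all rims. The share of all mouse genes that do so was not counted, and the members were chosen partly for low rims. The Rcan2 difference was largest in Rat3867, at 5.43 against 2.14 to 2.92 in the other rats, and that rat's rim had the 3 Rcan2 reads. Nrcam differed by 0.61 (SE 0.38) and was higher in core in 4 of 5 rats, with -0.62 in Rat3875 and 1.70 in Rat3876.

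Mouse markers of other cell types moved between core and rim as well. Of the 5 fibroblast markers measured 3 were tested and 2 called higher in core, with 0 lower, and their sums were 104 to 424 CPM in core and 60.5 to 180 CPM in rim. Dcn, decorin, averaged 68.6 CPM in core and 1.54 CPM in rim, a difference of 5.47 (SE 0.55, limma adjusted p = 0.000914). Pdgfra, a receptor of platelet-derived growth factor, averaged 158 CPM in core and 80.6 CPM in rim (0.92, SE 0.24, limma adjusted p = 0.0292). Its call ended without Rat3867 (limma adjusted p = 0.0585), Rat3875 (0.0907) or Rat3876 (0.0681). The fibroblast marker not called, Col1a1, averaged 9.66 CPM in core and 26.5 CPM in rim (-0.73, SE 0.91, limma adjusted p = 0.609). Of the 5 smooth muscle and pericyte markers measured 2 were tested, 1 called higher and 1 lower, with sums of 5.11 to 31.6 CPM in core and 2.88 to 7.11 CPM in rim. The higher one, the receptor Pdgfrb, averaged 14.2 CPM in core and 0.216 CPM in rim (6.05, SE 0.80, limma adjusted p = 0.00260). The lower one, Acta2, averaged 0.969 CPM in core and 3.34 CPM in rim (-1.69, SE 0.32, limma adjusted p = 0.00935). Of the 7 epithelial markers, 4 were called lower in core. In each of these libraries at most 1 marker of the fibroblast list and 1 of the smooth muscle list was at 0 reads. The part of these markers in the core values of the 5 genes was not tested. Misplaced rat reads were not estimated for the markers and could enter those at a low level.

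**Figure D2:**
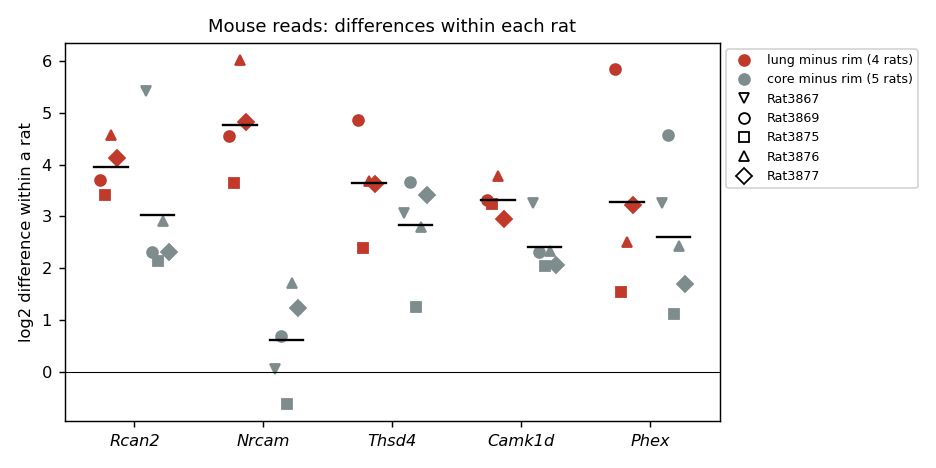
Difference within each rat in mouse reads on the log2 CPM scale, for lung minus rim (4 rats, left of each pair) and core minus rim (5 rats, right of each pair), with 1 symbol per rat and a bar at the mean. The core values of Nrcam spread around 0 from -0.62 to 1.70, while those of the other genes all lie above 1.

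Cultured 4T1 cells held low levels of the genes that were lowest in the rim. The pellet is 1 library from another table, with CPM taken over the 17672 shared genes and 95% exact Poisson intervals that cover counting error only. Rcan2 stood at 0.647 CPM (19 reads, interval 0.390 to 1.01) and Nrcam at 0.715 CPM (21 reads, 0.443 to 1.09). Camk1d stood at 5.58 CPM (164 reads, 4.76 to 6.51), Thsd4 at 8.0 CPM (235 reads, 7.01 to 9.09) and Phex at 12.6 CPM (371 reads, 11.4 to 14.0). Set beside the tumor libraries, the pellet lay within the range of the rims for Rcan2, Nrcam, Camk1d and Phex and above all rims for Thsd4. It lay below every lung for each gene. The tables were scaled separately, the pellet has no replicate, and no test was made.

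The lung libraries hold host RNA as well, so rat reads placed on the mouse genes would count as mouse reads there. Mouse reads made up 64.0 to 75.3% of the reads in the lung libraries. The gland, which holds no mouse cells, shows how often this happened. In gland libraries 1 and 2, 1.78% and 1.96% of reads fell on mouse genes. Rcan2 had 19 and 3 mouse reads there beside 563 and 750 rat reads, Nrcam 2 and 0 beside 27 and 9, Camk1d 5 and 2 beside 3 and 38, and Phex 7 and 1 beside 0 and 7. Thsd4 had 12 and 7 mouse reads, and its rat gene was not analysed here. In the pellet, rat reads of Rcan2, Nrcam, Camk1d and Phex numbered 1, 0, 1 and 0, beside 19, 21, 164 and 371 mouse reads.

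The mouse reads to be expected in each lung from misplaced rat reads were computed as the lung's rat reads of the gene times the ratio of mouse to rat reads of that gene over both gland libraries. For Rcan2 this gave 0.151 to 0.368% of the 275 to 930 mouse reads observed, with 0.560% at the highest upper 95% limit. For Nrcam it gave 0.609 to 2.32% of 177 to 757 reads (limit 9.02%), the highest in the lung of Rat3789. For Camk1d it gave 1.07 to 2.60% of 1033 to 2177 reads (limit 5.85%), and for Phex 0.311 to 4.98% of 367 to 1619 reads (limit 16.1%). For Thsd4 the gland's rate over all rat reads was used, and it gave 0.234 to 0.637% of 549 to 1723 reads (limit 0.995%). That rate takes rat Thsd4 to make up as much of the rat reads in lung as in gland, which was not measured here. These limits cover counting error only. The estimate rests on few gland reads of Phex and Camk1d. From gland library 1 alone, with 3 rat reads of Camk1d, the expected share of the Camk1d reads was 10.5 to 25.4% with an upper limit of 163%. For Phex that library gave no value, having 0 rat reads.

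**Figure D3:**
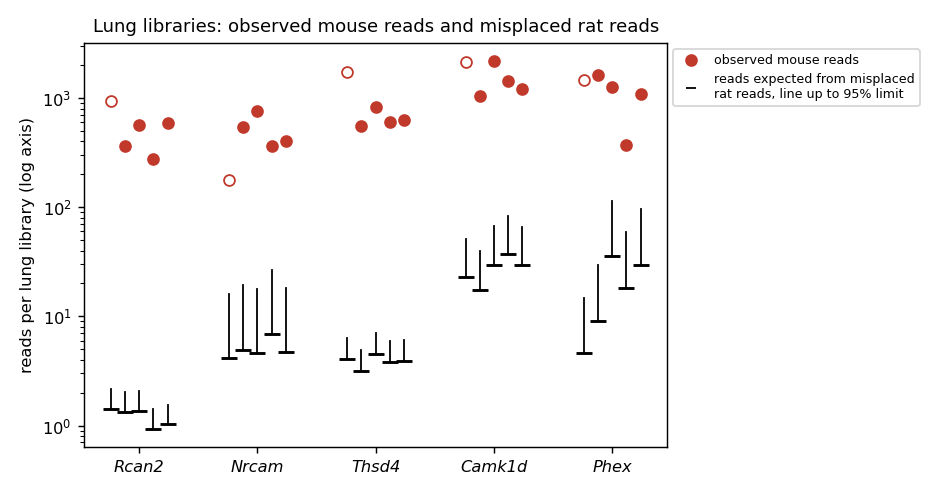
Mouse reads per lung library on a log axis (points, open for Rat3789) beside the reads expected there from misplaced rat reads (bars, with a line up to the upper 95% limit) for each gene. The expected reads use both gland libraries, and the observed reads lie above the upper limit in all 5 lungs for each gene; the gap is narrowest for Phex in the lung of Rat3876. The Thsd4 bars take rat Thsd4 to be as abundant in lung as in gland, which was not measured.

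The rat genes of the same names were tested in the host reads, which did not serve the choice. Mouse reads misplaced on the rat genes would enter these values. Mouse Rcan2 had 275 to 930 reads in the lungs and 3 to 41 in the rims, beside 56 to 84 and 10 to 43 rat reads. The pellet, with 1 rat read of Rcan2 beside 19 mouse reads, is too thin to give a rate. The part of misplaced mouse reads in the rat values was not tested. Rat Rcan2 stood at 9.61, 10.8, 7.56, 6.08 and 6.66 CPM of rat reads in the lungs and at 2.11, 3.27, 6.34, 4.74 and 4.38 CPM in the rims, and the 2 tissues overlapped. It was higher in lung by 1.03 (SE 0.30, limma adjusted p = 0.0323). With the rat as a block over the 4 rats with both tissues, the difference was 0.74 (limma adjusted p = 0.125), and the call also ended without the lung of Rat3869 (limma adjusted p = 0.0753) or Rat3875 (0.0630), or the rim of Rat3867 (0.0560) or Rat3869 (0.0713). The background was 22.1% of 13841 rat genes called higher or lower, against 1 of 3 members tested. These calls were 1458 higher and 1607 lower, or 2429 and 1250 with scaling to total reads, which moved the median of all rat genes to 0.149.

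Rat Camk1d stood at 13.9 to 23.3 CPM (median 16.2) in the lungs and 8.02 to 15.7 CPM (median 11.5) in the rims. Its difference of 0.60 (SE 0.20) did not pass the test (limma adjusted p = 0.0503), but it passed with the rat as a block (0.66, limma adjusted p = 0.0335) and with scaling to total reads (0.73, limma adjusted p = 0.0269). It also passed without the lung of Rat3789 (limma adjusted p = 0.0396) or Rat3869 (0.0477), or the rim of Rat3877 (0.0249). Rat Nrcam stood at 7.75 to 13.4 CPM (median 9.15) in the lungs and 7.89 to 17.4 CPM (median 12.8) in the rims, a difference of -0.26 (SE 0.25, limma adjusted p = 0.491). The mouse and rat tables were scaled separately, so the levels of the 2 species are not compared.

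Rat Phex was under the level required for the test. It had 4, 8, 31, 16 and 26 reads in the lungs and 0 to 1 read in the rims. All lungs thus lay above all rims, while no fold change is given. The share of all rat genes that do so was not counted. Without the level filter, rat Phex was called higher in lung (limma adjusted p = 0.00842). In the lung of Rat3789, where the rat type 1, type 2 and airway markers were at or near the level of the rims, mouse Rcan2, Thsd4 and Camk1d were the highest of the lungs. Mouse Phex was the third at 58.4 CPM, behind 73.8 and 67.7 CPM, and mouse Nrcam was the lowest at 7.04 CPM.

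**Figure D4:**
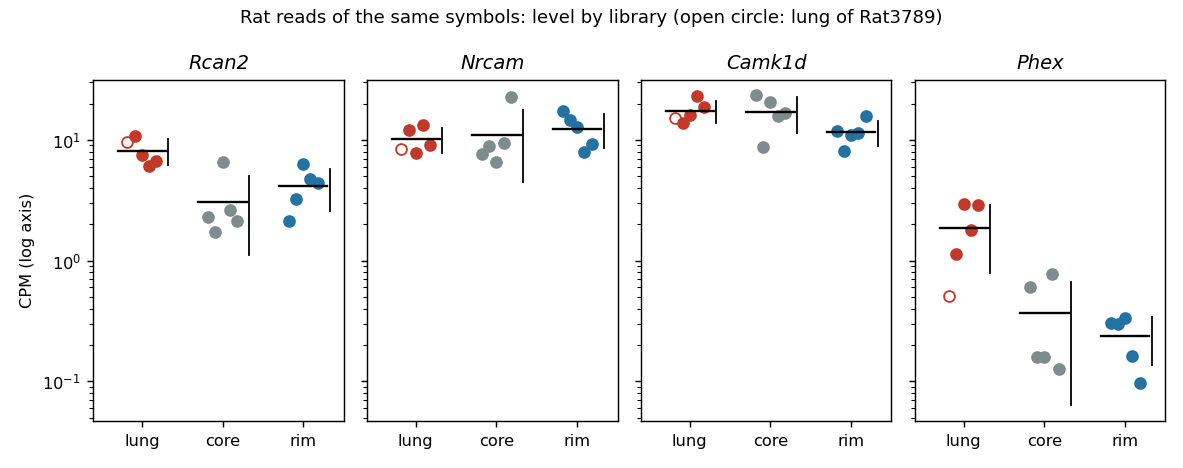
Level of the rat genes of the same names by tissue in CPM of rat reads on a log axis, with 1 point per library (5 lungs, 5 cores, 5 rims; open for the lung of Rat3789), a bar at the mean and a line of 1 SD either side. The SD line is cut short at its lower end for rat Phex in core. Lungs and rims overlap for Rcan2, Nrcam and Camk1d, and rat Phex lies at 0 to 1 read in the rims.

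Among marker lists of other cell types read in mouse genes, the type 1 and fibroblast lists held genes called higher in lung than in rim. The 2 of 7 type 2 markers measured in mouse reads summed to 73.7 to 91.0 CPM in lung and 65.7 to 99.7 CPM in rim, and the 3 of 8 endothelial markers to 1.49 to 3.48 CPM in lung and 1.55 to 4.50 CPM in rim. The 3 of 6 type 1 markers summed to 14.7 to 18.1 CPM in lung and 6.16 to 11.8 CPM in rim. Called higher were 2 of them, Rtkn2 (0.91, SE 0.26, limma adjusted p = 0.0291) and Aqp5 (2.53, SE 0.66, 0.0208). Aqp5 averaged 3.81 CPM in lung and 9.70 CPM in core. Ager was not called and stood lower in lung, at 1.04 CPM against 1.78 CPM in rim (-0.80, SE 0.35, limma adjusted p = 0.121). The 1 airway marker measured stood at 0.297 to 6.54 CPM in lung and 0.923 to 1.78 CPM in rim. None of these was at 0 reads in a lung library. Of the fibroblast markers 4 were tested and 1 was called, Pdgfra, at 152 CPM in lung and 80.6 CPM in rim (0.90, SE 0.24, limma adjusted p = 0.0222). That call ended without the lung of Rat3875 (limma adjusted p = 0.0518). Not called were Col1a1 (-2.70, SE 1.06, limma adjusted p = 0.0893), Col3a1 (-1.59, SE 0.57, 0.0662) and Dcn (1.41, SE 0.53, 0.0795). The median of the 4 was -0.35. The fibroblast sums, on average mostly Pdgfra, were 104 to 264 CPM in lung and 60.5 to 180 CPM in rim. The 264 CPM was that of Rat3789, and the other lungs reached 167 CPM. At most 1 fibroblast marker was at 0 reads in a library. The 1 smooth muscle marker tested and the 1 macrophage marker tested were called lower, with sums of 1.69 to 3.66 and 3.47 to 5.29 CPM in lung and 2.88 to 7.11 and 4.50 to 7.64 CPM in rim. The part of these markers in the values of the 5 genes was not tested. Misplaced rat reads were not estimated for the markers. Rat Acta2 averaged 156 CPM of rat reads in lung and 832 CPM in rim. It moved in the direction of its mouse gene, as did rat Col1a1 and Col3a1. Rat Pdgfra, Dcn and the macrophage marker Cd68 moved in the other direction from their mouse genes. For Phex, the 3 of 7 osteoblast markers measured summed to 229 to 998 CPM in lung and 333 to 396 CPM in rim, with 0 called higher and 1 lower. Only the lung of Rat3789 reached 998 CPM, with at most 363 CPM in the other lungs. In core the osteoblast sums were 456 to 723 CPM, and against rim 1 marker was called higher and 1 lower. The part of these markers in the Phex values was not tested. For Nrcam, the 4 of 7 Schwann and neural markers measured summed to 4.19 to 6.28 CPM in lung and 3.34 to 7.23 CPM in rim.

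Each gene was set beside all 10731 mouse genes of at least 2 mean log2 CPM by the root mean square difference between their log2 deviations from their own means over the 15 tumor and lung libraries. Thsd4, Camk1d, Phex and Rcan2 lay near each other. Thsd4 was nearest to Camk1d (0.58) and then to Phex (0.70), and Phex nearest to Thsd4 (0.70) and then to Camk1d (0.77). Rcan2 was nearest to Camk1d (0.74) and then to Thsd4 (0.99). Genes outside the 5 came between as well: Rcan2 stood at place 7 for Camk1d and at place 9 for Thsd4 and Phex. Phex stood at place 9 for Camk1d. Nrcam stood at place 24 for Rcan2, 416 for Camk1d, 480 for Thsd4 and 980 for Phex. The second neighbour of Camk1d was Pmp22, a myelin and epithelial membrane protein, at 0.64, which averaged 55.5 CPM in lung, 27.2 CPM in core and 12.2 CPM in rim. Nrcam stood by itself among the 5: its nearest genes were the tetraspanin Tspan15 (0.84) and Dlk2, a relative of the Notch-pathway protein Dlk1 (0.89), and the nearest of the other members, Camk1d, came at place 11 with 1.36. Tspan15 averaged 27.2 ± 8.30 CPM in lung, 4.44 ± 0.800 CPM in core and 3.23 ± 1.56 CPM in rim, and Dlk2 averaged 18.4 ± 3.86 CPM in lung, 3.79 ± 2.43 CPM in core and 2.81 ± 1.87 CPM in rim (SD, n = 5 each). The lung and rim libraries that chose the genes also enter this measure, so the likeness is a description.

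The partners of each protein were then followed, beside the 9.91% higher and 10.2% lower of all mouse genes in lung against rim. Of 16 genes of the calcineurin and NFAT pathway tested, 2 were called higher, 1 lower and 13 in neither direction, with a median log2 difference of 0.02 against 0.01 over all genes. The catalytic subunit Ppp3ca rose by 0.55 (SE 0.13, limma adjusted p = 0.0132) and the transcription factor Nfatc1 by 0.46 (SE 0.10, limma adjusted p = 0.0106), while the kinase Csnk1a1, which phosphorylates NFAT, fell by 0.52 (SE 0.07, limma adjusted p = 0.00111). The relatives of Rcan2 were not called: Rcan1 differed by 0.22 (SE 0.20, limma adjusted p = 0.465), a value that passed without the rim of Rat3876 (0.42, limma adjusted p = 0.0490), and Rcan3 by -0.18 (SE 0.10, limma adjusted p = 0.241). In core against rim, 3 of the 16 were called higher and 1 lower. There Ppp3ca rose by 0.89 (SE 0.13, limma adjusted p = 0.00395) and Rcan1 by 1.53 (SE 0.34, limma adjusted p = 0.0157), a call that ended without Rat3867 (limma adjusted p = 0.0550) or Rat3875 (0.0545).

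Of 12 calmodulin kinase genes tested in lung against rim, 3 were called higher and 2 lower, with a median of 0.09. Dapk2, a calmodulin-regulated kinase linked to cell death, fell by 2.47 (SE 0.59, limma adjusted p = 0.0141), with 1.62 CPM in lung and 8.36 CPM in rim. Camk2n1, an inhibitor of CaMKII, fell by 1.18 (SE 0.32, limma adjusted p = 0.0225), a call that ended without the lung of Rat3875 or Rat3876 or the rim of Rat3867 or Rat3869 (limma adjusted p = 0.0501 to 0.0555). Higher in lung were Camkk1, which activates CaMKI (0.75, SE 0.22, limma adjusted p = 0.0327), the kinase Camk2d (0.39, SE 0.12, limma adjusted p = 0.0404) and Camk1, another CaMKI kinase (0.23, SE 0.07, limma adjusted p = 0.0316). With the rat as a block, 1 of 12 was called higher and 2 lower: Camk2d passed (limma adjusted p = 0.0418), while Camkk1 (0.0998) and Camk1 (0.0681) did not. The Camkk1 call also ended without the lung of Rat3789, Rat3869, Rat3876 or Rat3877, and without the rim of Rat3867 or Rat3869 (limma adjusted p = 0.0513 to 0.0856). The Camk1 call ended without the lung of Rat3869, Rat3875, Rat3876 or Rat3877, or the rim of any rat but Rat3877 (limma adjusted p = 0.0509 to 0.0869). That of Camk2d ended without the lung of Rat3875, Rat3876 or Rat3877, or the rim of Rat3867, Rat3869 or Rat3876 (limma adjusted p = 0.0838 to 0.0959). In core against rim 3 of 13 were called higher and 2 lower.

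Of 7 genes around the L1 family tested, 0 were called higher in lung than in rim and 1 lower, with a median of 0.27. Ank3, an ankyrin of the kind that binds the motif printed for Nrcam, fell by 1.58 (SE 0.27, limma adjusted p = 0.00271), to 22.2 CPM in lung against 67.7 CPM in rim. L1cam, the founding member of the family, differed by 0.49 (SE 0.26, limma adjusted p = 0.203) in lung and fell by 1.88 (SE 0.30, limma adjusted p = 0.00455) in core against rim. In that comparison 2 of the 7 were called higher and 2 lower.

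Of 11 microfibril and Adamtsl genes tested, 2 were called higher and 1 lower in lung than in rim, with a median of -0.05. Papln, papilin, a relative of the Adamtsl proteins, fell by 1.97 (SE 0.20, limma adjusted p = 0.000180). Adamtsl4, a close relative of Thsd4, rose by 0.89 (SE 0.19, limma adjusted p = 0.00905), and Ltbp1, which holds latent TGF-beta at microfibrils, by 0.56 (SE 0.11, limma adjusted p = 0.00689). With the rat as a block 3 were called higher and 2 lower. In core against rim limma called 0 of 11, and 6 had an unadjusted p under 0.05. That count was 4 of 16 for the calcineurin and NFAT genes and 7 of 13 for the calmodulin kinases. It was 4 of 7 for the L1 family and 6 of 11 for the M13 and phosphate genes. Over all genes it was not taken.

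Of 12 genes of the M13 peptidases and of phosphate handling tested, 2 were called higher and 3 lower in lung than in rim, with a median of 0.09. Alpl, the phosphatase that splits pyrophosphate, rose by 3.40 (SE 0.54, limma adjusted p = 0.00192) at a low level, with 3.22 CPM in lung and 0.316 CPM in rim. Enpp1, which makes pyrophosphate, fell by 2.27 (SE 0.35, limma adjusted p = 0.00152). Ibsp, bone sialoprotein, fell by 1.85 (SE 0.50, limma adjusted p = 0.0227), and this call ended with the rat as a block (-1.49, limma adjusted p = 0.0814) and without the lung of Rat3877 (0.0578) or the rim of Rat3867 (0.0531). In core against rim 3 of 11 were called higher and 2 lower. Higher were Dmp1 (0.99, SE 0.11, limma adjusted p = 0.00128), Spp1 (1.00, SE 0.20, 0.0101) and Fgfr1 (2.52, SE 0.57, 0.0171). Ibsp fell by 1.50 (SE 0.30, limma adjusted p = 0.0106) and Enpp1 by 1.62 (SE 0.38, 0.0191).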

How the data were processed

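PolyA RNA-seq values of 15 tumor and lung libraries and 3 control libraries were used. The submitters' processing notes list Trim Galore, STAR, featureCounts, limma and the builds GRCm38 and Rnor_6.0. Tool versions, the tool that split reads by species and the strand setting are not given in those sources. For the tumor and lung libraries the authors deposited a normalized signal, taken here as voom-scale CPM: within a library, every value is (reads + 0.5) multiplied by 1 constant (100% within 0.01 reads). For the controls the authors deposited read counts per gene. Columns ending in "in" and "out" were read as core and rim, which the files do not spell out. The 2 gland columns were matched to the gland group and not to a replicate. Columns of no mapped sample numbered 0.

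Tests were two-sided with limma 3.58.1 (trend, R 4.3.3) on the log2-transformed values. A gene was tested when at least 5 compared libraries reached 1 CPM, and called when its Benjamini-Hochberg adjusted p fell under 0.05. The only pseudocount was the built-in 0.5 read, so differences of low genes are understated. Core and rim were fitted with the rat as a block. Lung was fitted without one, because Rat3789 lacks a rim and Rat3867 a lung. The values of the members in core and rim are printed without the planned test, since the rims chose them. The labels name the animal, which gives the pairing. Deviations of core and rim of a rat correlated at -0.0144, 0.161, 0.238, 0.194 and -0.182 (Rat3867 to Rat3877), and those of lung and rim at 0.0473, 0.298, 0.192 and 0.274 in mouse and 0.137, -0.0755, 0.0647 and 0.245 in rat genes. The fits were tested on simulated data. Binomial limits are 95% Clopper-Pearson intervals (scipy 1.17.1).

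The members and gene lists were chosen with earlier results of these data known. Named genes were the members, the genes directly outside them, the 2 nearest profiles of each, and up to 3 called genes of each list with the largest lung minus rim difference, with relatives a result turned on. The alternatives were the block, scaling, pseudocount, filter, libraries left out, and the choice of gland library and pellet denominator.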

Additional observations from a re-analysis of the deposited data

Results flagged for a closer look

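Among 27 groups of 5 libraries, formed by each mouse or rat gene in lung, core and rim, 2 had a library far from the others by Dixon's test on the log2 scale, for which the critical ratio of gap to range is 0.71. Chance flags about 1 in 20 groups. Mouse Nrcam in the lung of Rat3789 was the lowest of its group at 7.04 CPM, with a ratio of 0.787. Mouse Camk1d in the lung of Rat3869 was the lowest of its group at 47.1 CPM, with a ratio of 0.791.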

How the results depend on the processing

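The 5 mouse genes kept the direction of lung minus rim and of lung minus core under all 15 alternatives run, with lung minus rim at 3.96 to 5.02 for Rcan2, 4.11 to 4.82 for Nrcam, 3.48 to 4.16 for Thsd4, 3.32 to 3.79 for Camk1d and 3.03 to 3.93 for Phex. With the replicate block, mouse lung minus rim was 3.96, 4.77, 3.64, 3.32 and 3.28 for Rcan2, Nrcam, Thsd4, Camk1d and Phex. Under 10 alternatives, no replicate block included, core minus rim was 2.42 to 3.24 for Rcan2, 0.34 to 0.92 for Nrcam, 2.63 to 3.24 for Thsd4, 2.19 to 2.49 for Camk1d and 2.12 to 2.99 for Phex. With 1 library or rat left out, calls ranged from 1589 to 3397 genes in mouse lung minus rim and from 1260 to 2422 in mouse core minus rim. For rat genes, the replicate block gave 0.74 for Rcan2 and 0.66 for Camk1d, and total-count scaling gave 0.73 for Camk1d; with 1 library left out, Rcan2 ranged from 0.80 to 1.20 and Camk1d from 0.47 to 0.72. The block left rat Nrcam uncalled, and without the level filter rat Phex was called (limma adjusted p = 0.00842). The cause of these changes was not tested. The share of a gene's gland reads placed on mouse was 1.65% for Rcan2, 5.26% for Nrcam, 14.6% for Camk1d and 53.3% for Phex over both gland libraries. It was 3.26%, 6.90%, 62.5% and 100% in library 1 alone and 0.398%, 0%, 5.0% and 12.5% in library 2 alone, where few reads stand behind Nrcam, Camk1d and Phex. Among 530 settings of 38 results for other named genes, 494 kept their side of the threshold, 35 lost a call, 1 gained one and 0 reversed. The planned edgeR and DESeq2 fits were not run, since the tumor and lung libraries were deposited as a normalized signal and not as counts. Reads recovered from that signal did serve the scaling and pseudocount alternatives and the estimate of misplaced reads. Depth limits Rcan2 and Nrcam in the rim, at 3 to 41 and 5 to 45 reads.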

Other observations

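The genes that follow the 5 in the order of lung minus rim split by their level in the core. Aqp1, a water channel, averaged 122 CPM in lung, 61.1 CPM in core and 18.4 CPM in rim, a difference of core from rim of 2.26 (SE 0.52). Ccn5, a matricellular protein of the CCN family, averaged 26.1 CPM in lung, 29.9 CPM in core and 3.01 CPM in rim, a difference of core from rim of 3.32 (SE 0.20). Grap, an adaptor protein, averaged 23.5 CPM in lung, 4.17 CPM in core and 2.90 CPM in rim. Syt13, a synaptotagmin, averaged 125 CPM in lung, 20.2 CPM in core and 20.1 CPM in rim, and Gm42517 averaged 12.1 CPM in lung, 1.24 CPM in core and 1.93 CPM in rim. All of these genes were ordered by the lung and rim libraries, so these values, core minus rim included, are a description.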
